A study of Mus musculus with 19 samples.

Results

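The genes of motile cilia and of intraflagellar transport (IFT) were examined in lungs of mice with 1 or both copies of hyaluronan synthase 2 (Has2), after long exposure to ovalbumin (OVA) or saline. The set holds 47 genes chosen by name, all found among the 49585 genes of the count table. Of these, 36 belong to the motile axoneme and its transcriptional control and 11 to IFT, the BBSome or the basal body. RNA was sequenced from 5 Has2+/- OVA libraries, 4 Has2+/- saline libraries, 5 WT OVA libraries and 5 WT saline libraries. All mice were female Balb/c. Their age is given as 6 to 8 weeks, which must be that before the 8 weeks of challenge. The Has2+/- animals carry 1 null allele in every cell after backcrossing for at least 8 generations. OVA mice were sensitized by injection of OVA with aluminum hydroxide on days 1 and 15 and challenged through the nose 5 days a week for 8 weeks from day 22, with lungs taken 24 h after the last challenge. Control mice received saline by the same routes. Libraries are called by the running number in the table, 1 to 19, which is not the replicate number of the labels, and nothing in the table ties libraries to further detail of the animals.

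Motile cilia are built by multiciliated cells of the airway, where they beat together and move mucus out of the lung. The axoneme carries outer and inner dynein arms that slide microtubule doublets past each other, with radial spokes, a central pair and nexin links that shape the beat. Proteins reach the growing tip by IFT particles, which primary cilia of other lung cells also use, and the BBSome moves membrane proteins in and out of the cilium. Foxj1 and the RFX factors switch on axonemal genes, while Mcidas and Ccno start centriole amplification.

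Total counts ran from 4446534 to 7048676 per library (median 5493263). A gene was tested if it passed a filter on low counts, which 14495 genes did. Of the 47 members 46 passed, and Mcidas did not. Levels are given as CPM, the counts of a gene relative to the size of its library, scaled for library composition, and a gene was called if its adjusted p was under 0.01 and its fold change above 1.2. Has2 itself had 3 to 9 counts in Has2+/- OVA libraries, 2 to 7 in Has2+/- saline libraries, 2 to 10 in WT OVA libraries and 1 to 4 in WT saline libraries, so its counts give no check of the genotype labels. All 10 genes fixed as markers of multiciliated cells had counts in every library.

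RFX factors bind pairs of a short half-site, and the promoters of members were searched for it because Rfx2 is among the few members that changed with OVA. The RefSeq promoter table (GRCm38.p6, 250 bases before to 50 after the start) held 39 of the 47 members. Not in that table were Foxj1, Dnah3, Rsph1, Rsph4a, Lrrc6, Tppp3, Ift80 and Ift122. The half-site GTTGCC, read on both strands, stood in 19 of 39 members (48.7%), against 14.1% of all 27025 genes of the table. It was found in 15 of 30 motile members and in 4 of 9 members of IFT, the BBSome and the basal body. The longer X-box motif, which can overlap the half-site, stood in 26 of 39 members (66.7%), against 37.9% of all genes, and overlapped a half-site in 9 members. By role, the X-box stood in 23 of 30 motile members (76.7%) and in 3 of 9 IFT, BBSome and basal body members (33.3%). The forkhead motif GTAAACA was found in 2 of 39 members, Sntn and Ak7 (5.13%), against 4.05% of all genes. A match describes these letters and not bound sites.

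The windows printed here show half-sites that lie before the start, in capitals, each read 5′ to 3′ on the strand of its gene. They belong to the 3 regulators Rfx2 (chr17:56831099-56831144, minus strand), Mcidas (chr13:112993653-112993698, plus strand) and Ccno (chr13:112987563-112987608, plus strand). Dnah10 (chr5:124725045-124725084, plus strand) and Ccdc153 (chr9:44240505-44240550, plus strand) stand for the axoneme. Ift140 (chr17:25015957-25016002, plus strand) is the only IFT, BBSome or basal body member with a half-site before the start, there in reverse complement.
Rfx2: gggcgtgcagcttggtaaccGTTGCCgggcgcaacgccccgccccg
Mcidas: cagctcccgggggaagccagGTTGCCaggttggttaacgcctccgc
Ccno: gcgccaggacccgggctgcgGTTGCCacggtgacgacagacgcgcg
Dnah10: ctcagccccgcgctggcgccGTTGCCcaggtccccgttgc
Ccdc153: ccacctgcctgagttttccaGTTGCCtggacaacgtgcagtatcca
Ift140: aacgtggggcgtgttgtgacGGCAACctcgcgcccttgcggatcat
The half-site ended 110 bases before the start in Rfx2, 189 in Mcidas, 213 in Ccno, 14 in Dnah10, 146 in Ccdc153 and 103 in Ift140. Those of Ccno and Ccdc153 overlapped an X-box.

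One library stood apart for these genes and is described first. Has2+/- saline library 9 held the highest level of all 19 libraries for 33 of the 35 motile members tested, all but Rfx3 and Tppp3, against 9.82% of all genes tested. The mean log2 CPM of the motile members, with the mean of each gene set to 0, was 0.73 in library 9. It was -0.19, -0.12 and -0.04 in the other 3 Has2+/- saline libraries and between -0.20 and 0.16 in the 15 libraries of the other groups. The median log2 ratio of library 9 to the mean of the other 3 was 0.82 for the motile members, 0.11 for the 11 members of IFT, the BBSome and the basal body, and 0.01 for all genes. Rsph1, a radial spoke head protein, had the highest ratio, 1.66, at 31.3 CPM in library 9 against 8.29, 7.86 and 12.5 CPM in the other 3. Foxj1 had 159.5 CPM in library 9 against 76.3, 52.2 and 81.4 CPM. Ift88, Ift122 and Ift172 of the 11 IFT, BBSome and basal body members were highest there. That is 27.3% of these 11, and of the further genes counted later library 9 was the highest for 10 of 27 IFT genes (37%), 11 of 31 BBSome and transition zone genes (35.5%) and 51 of 65 axonemal genes (78.5%). The median log2 ratios of these 3 lists were 0.12, 0.16 and 0.82. Library 9 was the highest for 5 of 20 further multiciliated programme genes (25%), with a median log2 ratio of 0.21.

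**Figure D1:**
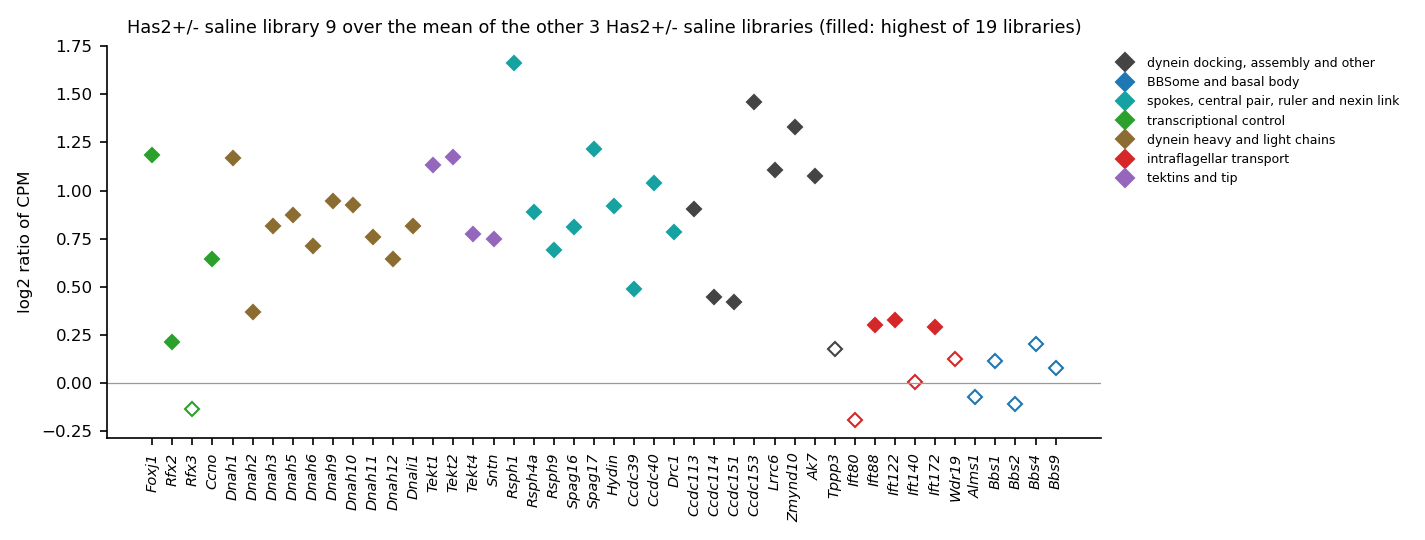
The log2 ratio of CPM in Has2+/- saline library 9 over the mean of the other 3 Has2+/- saline libraries (y axis) is plotted for the 46 members tested (x axis), coloured by role, with filled marks where library 9 was the highest of 19 libraries. The motile members have a median of 0.82 and the IFT, BBSome and basal body members, at the right, a median of 0.11.

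Other lists moved with it in library 9. The 6 club cell markers, secretory cells that share the airway lining with ciliated cells, summed to 22616 CPM against 10875 to 12803 CPM in the other 3 Has2+/- saline libraries, and 5 of the 6 were at their highest of 19 libraries. The median log2 ratio of library 9 to the other 3 was 1.64 for 6 goblet cell markers, 0.51 for 6 leukocyte markers, -0.26 for 6 alveolar type 2 markers and -0.80 for 6 endothelial markers. Per 100 CPM of club cell markers the members summed to 12.9 CPM in library 9 and to 13.8 to 18.1 CPM in the other 3. Per 100 CPM of 7 pan-epithelial markers the members summed to 325 CPM in library 9 and to 213 to 242 CPM in the other 3. In whole lung, more cells of a type and more RNA per cell cannot be told apart, and the part of these lists in the members' levels was not tested. Counts, medians and estimates of the members that rest on library 9 are therefore also given without it. Fold changes of single genes of the further lists are given with library 9 only. The same holds for all fold changes and calls of cell markers and of further IFT, BBSome and transition zone genes.

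**Figure D2:**
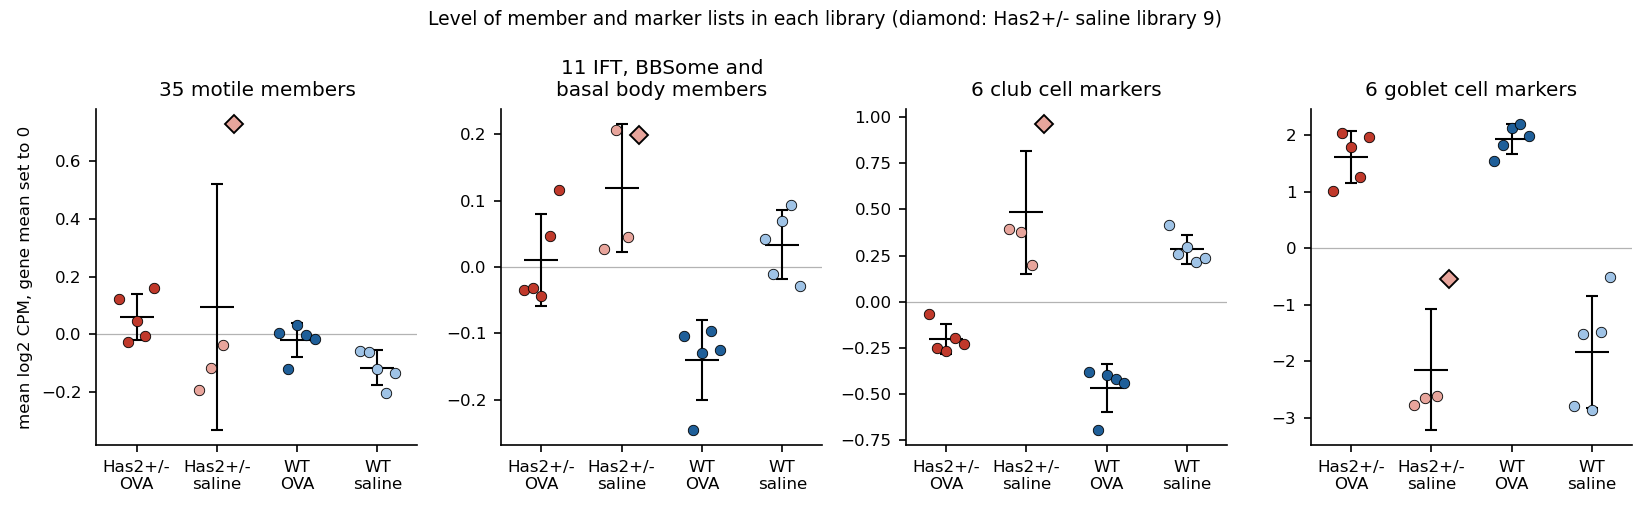
Mean log2 CPM of 4 gene lists, with the mean of each gene set to 0, is plotted on the y axis for every library by group (x axis), with group mean and SD (n = 5, 4, 5 and 5) and library 9 as a diamond. Library 9 reaches 0.73 for the motile members, above all other libraries, while club cell markers are lower and goblet cell markers higher in both OVA groups than in their saline groups.

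In WT lungs, chronic OVA left nearly all members uncalled while it changed 3175 of 14495 genes (21.9%; 12% higher and 9.95% lower). Of the 46 members tested 0 rose and 4 fell (8.70%) in the model of all 4 groups: Tppp3, Rfx2, Alms1 and Bbs1. The motile members leaned upward, 26 of 35 with a positive log2 fold change and a median of 0.10, and the 11 members of IFT, the BBSome and the basal body leaned downward, 9 negative with a median of -0.21, beside a median of 0.00 for all genes. OVA and saline libraries did not overlap for 5 members that were higher (Dnah5, Dnah9, Dnah10, Hydin and Ccdc153) and 5 that were lower (Tppp3, Alms1, Bbs1, Ift80 and Ift172), against 14.1% and 13.4% of all genes. In Has2+/- lungs, OVA changed 2643 genes (18.2%; 10.5% higher and 7.72% lower) and 0 of the 46 members. The median there was -0.04 for motile members and -0.14 for the others (0.21 and -0.12 without library 9). In these lungs 2 members, Ccno and Bbs2, did not overlap between OVA and saline, both lower (7.33% of all genes), and 0 were higher (1594 of 14495 genes). Without library 9 the same 2 were lower (13.7% of all genes) and 7 were higher (16.4% of all genes), Dnah1, Dnah5, Dnah6, Rsph1, Rsph4a, Ccdc153 and Ak7.

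Markers of other lung cells were counted in the same libraries, beside the 12% of all genes that rose and 9.95% that fell in WT lungs. In WT lungs 4 of 6 club cell, 4 of 6 alveolar type 1 and 3 of 6 endothelial markers fell, and 6 of 6 goblet cell (median log2 fold change 3.30), 5 of 6 leukocyte, 4 of 6 eosinophil and type 2, 3 of 4 basal cell and 2 of 6 alveolar type 2 markers rose. Of 7 pan-epithelial markers 1 rose and 1 fell in each genotype, with medians of -0.04 in Has2+/- lungs and 0.05 in WT lungs. For Has2+/- lungs, 4 of 6 club cell, 4 of 6 alveolar type 1 and 2 of 6 endothelial markers fell, and 5 of 6 goblet cell, 5 of 6 leukocyte, 3 of 6 eosinophil and type 2, 0 of 4 basal cell and 4 of 6 alveolar type 2 markers rose, beside 10.5% and 7.72% of all genes that rose and fell. No test compared these lists with the members. Club cell markers summed to 8504 to 10786 CPM in Has2+/- OVA libraries and 10875 to 22616 CPM in Has2+/- saline libraries, and to 7125 to 9028 CPM in WT OVA libraries and 11344 to 12815 CPM in WT saline libraries. Members summed to 2016 ± 125 CPM in Has2+/- OVA and 2129 ± 535 CPM in Has2+/- saline libraries (SD, n = 5 and 4), and to 1943 ± 108 CPM in WT OVA and 1884 ± 66.3 CPM in WT saline libraries (SD, n = 5 each). The part of these shifts in the members' values was not tested.

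**Figure D3:**
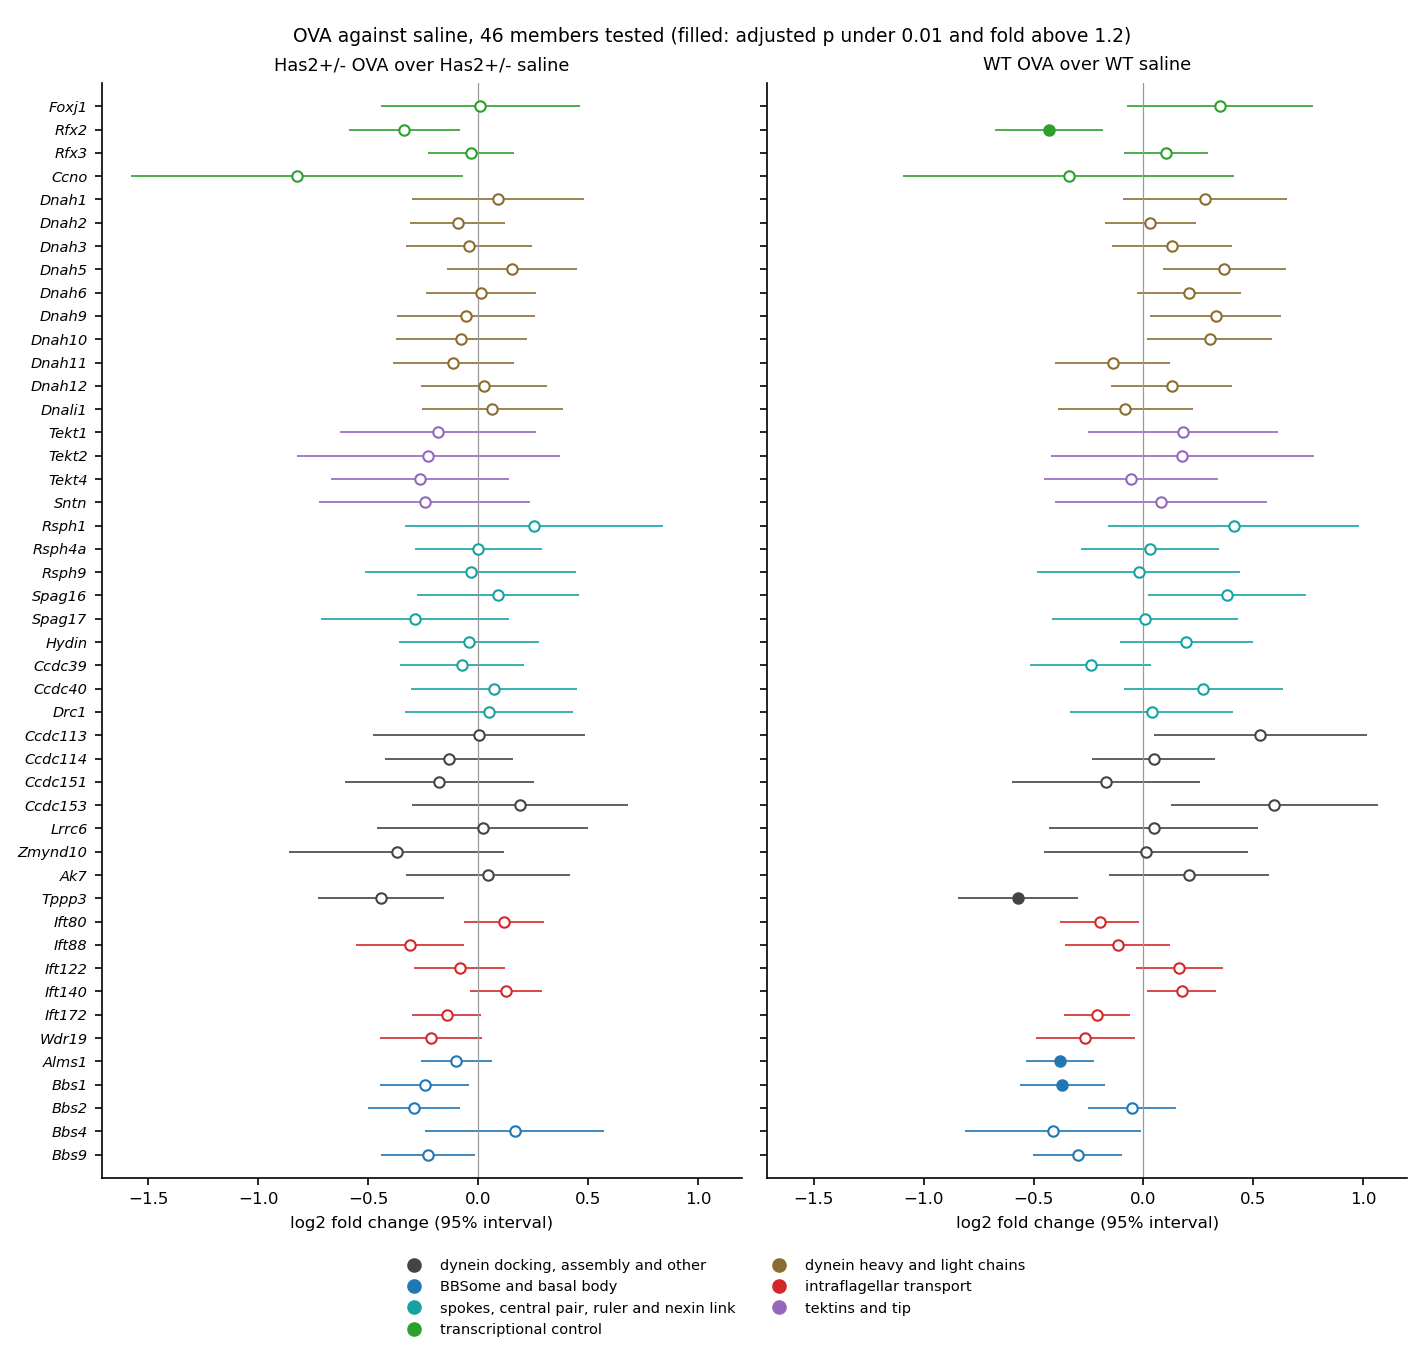
Log2 fold changes of OVA over saline (x axis) with 95% intervals are plotted for the 46 members tested (y axis), coloured by role, in Has2+/- lungs at the left and WT lungs at the right. Filled marks are called members, of which there are 4 in WT lungs, all lower, and 0 in Has2+/- lungs.

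Of the 4 regulators tested, 1 fell with OVA in WT lungs, Rfx2, and Foxj1, Rfx3 and Ccno were not called. Rfx2 (chr17:56775896-56831008) had 31.4, 25.9, 25.0, 26.5 and 21.7 CPM in Has2+/- OVA libraries, against 32.3, 33.5, 29.7 and 37.0 CPM in Has2+/- saline libraries. It had 25.1, 18.4, 23.2, 19.3 and 25.0 CPM in WT OVA libraries, against 32.5, 34.0, 31.8, 26.4 and 24.6 CPM in WT saline libraries. The WT groups overlapped only through the lowest saline library. The log2 fold change was -0.43 ± 0.12 (SE) in WT lungs (adjusted p = 0.0075) and -0.34 ± 0.12 in Has2+/- lungs (adjusted p = 0.040, not called), where it was -0.28 ± 0.13 without library 9 (adjusted p = 0.099). The call is close to its limit: leaving out any of 7 single libraries (WT saline 1, 2 or 3, WT OVA 11, 12 or 13, or Has2+/- OVA 18) gave adjusted p of 0.0102 to 0.0286, with log2 fold changes of -0.44 to -0.37, and a model of the WT groups alone gave 0.0111.

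Foxj1, the factor that commits cells to motile ciliogenesis, had 101, 87.0, 91.7, 79.7 and 103 CPM in Has2+/- OVA libraries, against 76.3, 52.2, 81.4 and 159.5 CPM in Has2+/- saline libraries. It had 92.5, 107, 119.7, 157 and 132 CPM in WT OVA libraries, against 74.4, 116, 98.9, 96.2 and 92.2 CPM in WT saline libraries. The groups overlapped in both genotypes. Its log2 fold change was 0.35 ± 0.20 in WT lungs (adjusted p = 0.198) and 0.01 ± 0.22 in Has2+/- lungs (adjusted p = 0.981), where it was 0.40 ± 0.16 without library 9 (adjusted p = 0.066). Foxj1 and Rfx2, both activators of axonemal genes, thus had estimates of opposite sign in WT lungs, with only that of Rfx2 called.

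Rfx3, which acts with Foxj1 and Rfx2 on axonemal promoters, had 37.5, 38.7, 36.4, 40.2 and 37.6 CPM in Has2+/- OVA libraries, against 33.9, 42.1, 43.8 and 36.3 CPM in Has2+/- saline libraries. It had 42.5, 31.7, 38.7, 35.2 and 32.8 CPM in WT OVA libraries, against 36.7, 35.4, 30.8, 34.7 and 30.7 CPM in WT saline libraries. These groups lay within the same range, with log2 fold changes of -0.03 ± 0.09 in Has2+/- lungs and 0.10 ± 0.09 in WT lungs (adjusted p = 0.827 and 0.414). Without library 9 the Has2+/- value was -0.07 ± 0.10 (adjusted p = 0.661).

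Ccno, needed for centriole amplification, was low, at 2.08, 1.67, 2.10, 1.57 and 0.960 CPM in Has2+/- OVA libraries, against 3.20, 2.43, 2.17 and 4.35 CPM in Has2+/- saline libraries. It had 1.06, 1.84, 0.820, 3.31 and 1.46 CPM in WT OVA libraries, against 2.20, 2.29, 2.17, 0.831 and 3.31 CPM in WT saline libraries. The Has2+/- groups did not overlap, but the log2 fold change of -0.83 ± 0.36 was not called (adjusted p = 0.093; -0.63 ± 0.39 and adjusted p = 0.225 without library 9), and in WT lungs it was -0.34 ± 0.36 (adjusted p = 0.503). Mcidas, which starts the multiciliated programme, had 65 counts in all, 4, 2, 5, 3 and 0 in Has2+/- OVA libraries, 3, 3, 1 and 8 in Has2+/- saline libraries, 1, 2, 6, 3 and 2 in WT OVA libraries and 1, 7, 4, 3 and 7 in WT saline libraries. The count of 8 was in library 9. Its mean was 0.540 ± 0.401 CPM in WT OVA and 0.787 ± 0.416 CPM in WT saline libraries (SD, n = 5 each, p = 0.365 by an exact permutation test, two-sided, smallest possible 0.00794). In Has2+/- lungs it was 0.472 ± 0.326 CPM with OVA and 0.726 ± 0.695 CPM with saline (SD, n = 5 and 4, exact p = 0.571, smallest possible 0.0159). No difference in Mcidas was detectable at this depth.

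The dynein arms are the motors of the beat, and their heavy chains were among the members with the highest counts. Of 10 dynein heavy and light chains 0 were called in either genotype, 8 were positive in WT lungs (median 0.17) and 5 in Has2+/- lungs (median -0.02). Without library 9 all 10 were positive in Has2+/- lungs (median 0.22) and 2 were called higher (12.1% of genes tested were). In WT lungs 3 were then called higher (12.7% of genes tested were). Dnah5, an outer arm heavy chain, had 181, 165, 164, 169 and 206 CPM in Has2+/- OVA libraries, against 119.6, 132, 146 and 243 CPM in Has2+/- saline libraries. It had 168, 159.6, 183, 179.8 and 181 CPM in WT OVA libraries, against 150.2, 139.8, 134, 129.8 and 122 CPM in WT saline libraries. All 5 WT OVA libraries lay above all WT saline libraries, and in Has2+/- lungs library 9, the 243 CPM, lay above every OVA library while the other 3 lay below them all. The log2 fold change was 0.37 ± 0.13 in WT lungs (adjusted p = 0.040) and 0.15 ± 0.14 in Has2+/- lungs (adjusted p = 0.460).

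Dnah9, another outer arm heavy chain of airway cilia, had 110.0, 113, 104, 96.2 and 127 CPM in Has2+/- OVA libraries, against 87.1, 92.1, 99.9 and 179.5 CPM in Has2+/- saline libraries. It had 117, 103, 114, 119 and 116 CPM in WT OVA libraries, against 101, 98.4, 84.2, 87.0 and 83.7 CPM in WT saline libraries. Dnah10, an inner arm heavy chain, had 74.7, 70.1, 79.8, 72.3 and 88.0 CPM in Has2+/- OVA libraries, against 63.7, 72.3, 64.0 and 127 CPM in Has2+/- saline libraries, and 78.7, 76.4, 79.1, 76.7 and 83.3 CPM in WT OVA libraries, against 67.3, 62.6, 64.1, 58.0 and 67.7 CPM in WT saline libraries. Both had WT groups that did not overlap and log2 fold changes of 0.33 ± 0.14 and 0.30 ± 0.14 there (adjusted p = 0.084 and 0.097). In Has2+/- lungs the values were -0.06 ± 0.15 for Dnah9 and -0.08 ± 0.14 for Dnah10 (adjusted p = 0.823 and 0.731). Without library 9 both changed sign there, to 0.24 ± 0.09 and 0.21 ± 0.08 (adjusted p = 0.039 and 0.040, not called). Dnah1, an inner arm heavy chain, had 37.0, 40.2, 36.9, 39.5 and 42.8 CPM in Has2+/- OVA libraries, against 25.1, 26.6, 33.4 and 64.3 CPM in Has2+/- saline libraries. As for Dnah5, library 9 was above the OVA range and the other 3 were below it.

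The remaining axonemal roles differed in their counts. Of 4 tektins and tip members (Tekt1, Tekt2, Tekt4 and Sntn) 0 were positive in Has2+/- lungs and 3 in WT lungs, and of 9 members of the spokes, central pair, ruler and nexin link 5 and 7 were positive, with 0 called in these roles. Tektins and tip members had a median of -0.24 in Has2+/- lungs and 0.13 in WT lungs, and the spoke group 0.00 and 0.04. Without library 9, 2 of 4 tektins and tip members were positive in Has2+/- lungs (median 0.08). In the spoke group 9 of 9 were then positive there (median 0.27). Of 8 members of dynein docking, assembly and other functions 4 were positive in Has2+/- lungs (median -0.06) and 6 in WT lungs (median 0.05), where 1 fell, Tppp3. Without library 9, 5 of these 8 were positive in Has2+/- lungs (median 0.19). Ccdc153 (chr9:44240675-44247306), a protein of motile cilia, had 29.7, 27.6, 28.0, 22.9 and 38.0 CPM in Has2+/- OVA libraries, against 19.0, 15.9, 18.9 and 50.2 CPM in Has2+/- saline libraries. It had 34.4, 35.6, 28.7, 26.7 and 30.98 CPM in WT OVA libraries, against 18.5, 22.9, 20.8, 20.4 and 20.8 CPM in WT saline libraries. Its WT groups did not overlap, with the highest estimate of the members, 0.60 ± 0.23 (adjusted p = 0.047), and the Has2+/- value was 0.19 ± 0.24 (adjusted p = 0.590). Rsph1 had 17.8, 15.4, 15.6, 16.8 and 21.9 CPM in Has2+/- OVA libraries and, in WT lungs, 11.1, 17.2, 16.2, 17.8 and 13.7 CPM with OVA against 10.6, 13.2, 11.5, 12.05 and 9.92 CPM with saline. Its log2 fold change was 0.25 ± 0.28 in Has2+/- lungs and 0.41 ± 0.27 in WT lungs (adjusted p = 0.541 and 0.265).

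Without library 9, which belongs to neither WT group, 4 members whose WT groups did not overlap passed the test there at nearly the same estimates. The standard errors of these members were smaller in that refit, which also tested 14649 genes in place of 14495. A model of the WT groups alone, which also leaves out library 9, called the same members higher, at adjusted p of 0.00025 to 0.0014. What brought the calls was not tested. Of 46 members, 4 were called higher in the refit without library 9 (12.7% of genes tested were) and the same 4 lower as before (10.8%). The 4 higher were Ccdc153 (0.59 ± 0.12, adjusted p = 0.00051), Dnah5 (0.37 ± 0.08, adjusted p = 0.00070), Dnah10 (0.30 ± 0.07, adjusted p = 0.0014) and Dnah9 (0.33 ± 0.08, adjusted p = 0.0019). Among Has2+/- lungs, 4 were called higher without it (12.1% of genes tested were) and 0 lower (10.2%). These were Ccdc153 (0.70 ± 0.14, adjusted p = 0.00065), Rsph1 (0.87 ± 0.18, adjusted p = 0.00084), Dnah5 (0.42 ± 0.09, adjusted p = 0.00097) and Dnah1 (0.47 ± 0.11, adjusted p = 0.0025). The median of the motile members in Has2+/- lungs moved to 0.21 without library 9, with 27 of 35 positive, and in WT lungs it stayed at 0.10. The calls for dynein and spoke genes with OVA thus depend on 1 saline library of the other genotype or of the same one.

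Tppp3, a tubulin polymerization protein abundant in ciliated cells, had the lowest log2 fold change of the motile members with OVA in WT lungs. Among Has2+/- lungs the lowest was that of Ccno, which was not called. Per kilobase of exon it was the most abundant member, at 90.6 CPM per kb in Has2+/- OVA, 123 in Has2+/- saline, 88.0 in WT OVA and 131 in WT saline libraries, with Foxj1 next at 35.2, 35.2, 46.3 and 36.4 CPM per kb. Tppp3 (chr8:105467492-105471526) had 205, 152, 171, 151 and 158 CPM in Has2+/- OVA libraries, against 214, 179, 269.7 and 249.7 CPM in Has2+/- saline libraries. It had 177, 139, 179, 123 and 195 CPM in WT OVA libraries, against 255.4, 250.003, 276, 227 and 198 CPM in WT saline libraries. Every WT OVA library was below every WT saline library, and in Has2+/- lungs the groups overlapped. The log2 fold change was -0.57 ± 0.13 in WT lungs (adjusted p = 0.0019) and -0.44 ± 0.14 in Has2+/- lungs (adjusted p = 0.019, not called; -0.40 ± 0.15 and adjusted p = 0.043 without library 9). DESeq2 called Tppp3 in Has2+/- lungs as well, at -0.45 (adjusted p = 0.0080). Tppp3 was also 1 of the 2 motile members that were not at their highest in library 9.

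**Figure D4:**
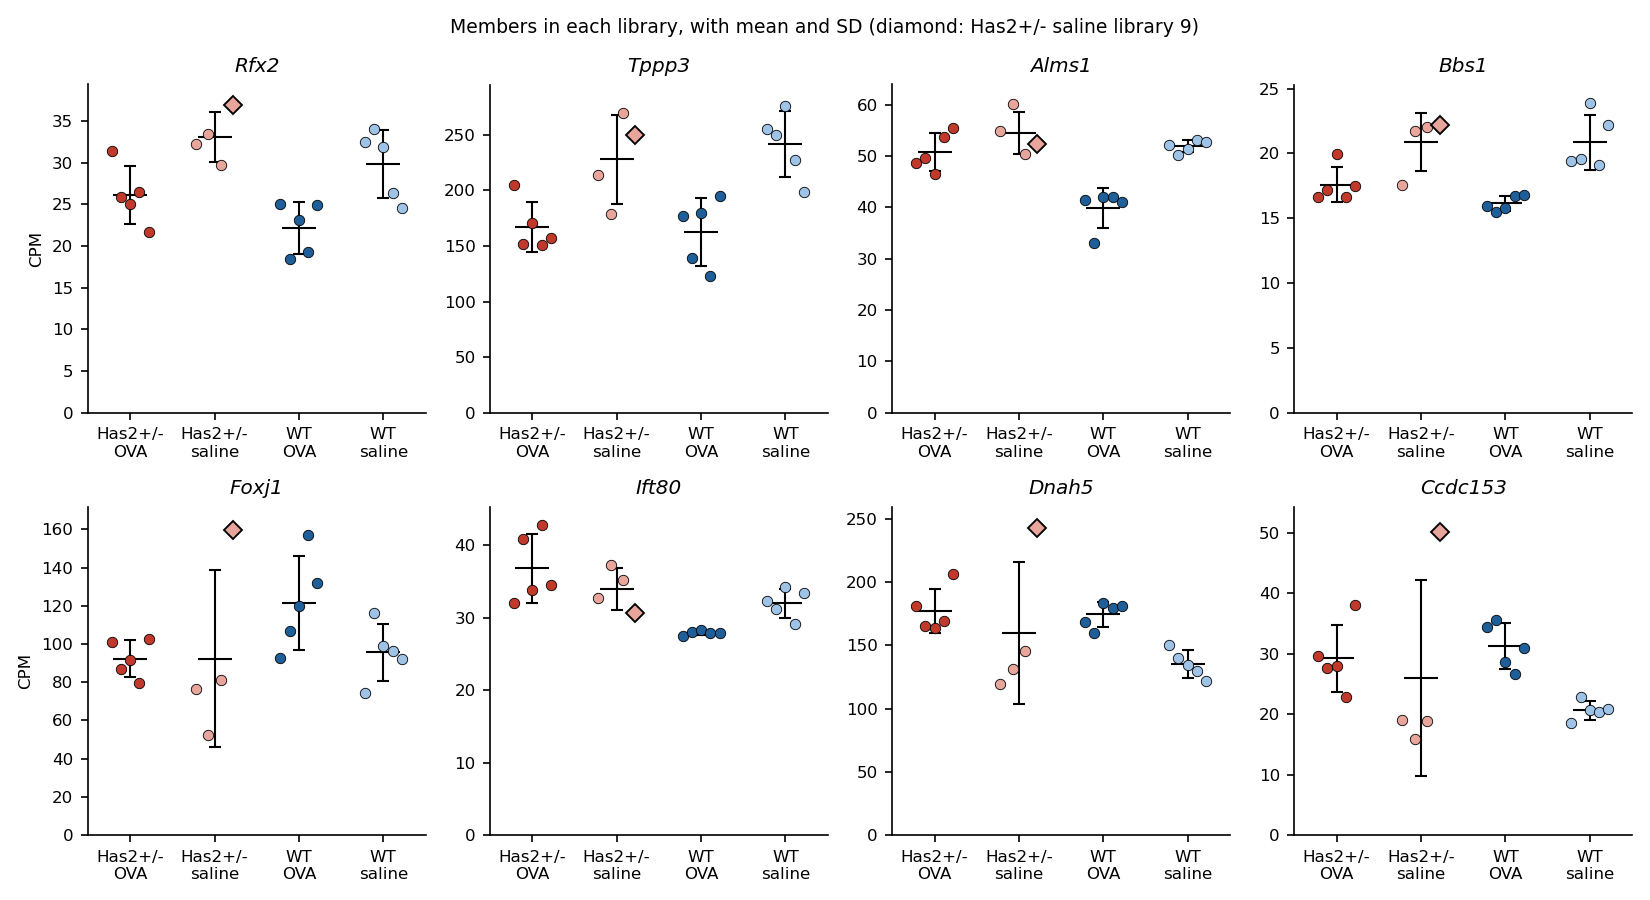
CPM (y axis, from 0) of 8 members is plotted for every library by group (x axis), with group mean and SD (n = 5, 4, 5 and 5) and library 9 as a diamond. Tppp3, Alms1 and Bbs1 lie lower in WT OVA than in WT saline libraries without overlap, and Dnah5 and Ccdc153 lie higher, while library 9 is the highest Has2+/- saline point for Foxj1, Dnah5 and Ccdc153.

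Of the 11 IFT, BBSome and basal body members, 2 fell with OVA in WT lungs, Alms1 and Bbs1, beside 9.95% of all genes. The difference between these members and the axonemal ones was not tested. In WT lungs 5 of 5 BBSome and basal body members were negative (median -0.37), and 4 of 6 IFT members were negative (median -0.16) with 0 called. The same roles had 4 of 5 and 4 of 6 negative in Has2+/- lungs (medians -0.23 and -0.12) and 0 were called in either role, beside 7.72% of all genes that fell. Without library 9 these counts were 4 of 5 and 3 of 6 (medians -0.21 and -0.03). Alms1 (chr6:85587530-85702753), a protein of the centrosome and basal body, had 48.6, 49.6, 46.6, 53.7 and 55.5 CPM in Has2+/- OVA libraries, against 54.9, 60.1, 50.5 and 52.4 CPM in Has2+/- saline libraries. It had 41.5, 33.0, 42.0, 42.0 and 41.0 CPM in WT OVA libraries, against 52.1, 50.2, 51.4, 53.2 and 52.6 CPM in WT saline libraries. The WT groups lay well apart, with 1 OVA library, 11, below the rest, and the Has2+/- groups overlapped. The log2 fold change was -0.38 ± 0.07 in WT lungs (adjusted p = 0.00051) and -0.10 ± 0.08 in Has2+/- lungs (adjusted p = 0.354; -0.12 ± 0.08 and adjusted p = 0.293 without library 9).

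Bbs1 (chr19:4886897-4906627), a core subunit of the BBSome, had 16.7, 17.2, 19.96, 16.6 and 17.5 CPM in Has2+/- OVA libraries, against 17.6, 21.7, 22.1 and 22.2 CPM in Has2+/- saline libraries. It had 15.9, 15.5, 15.8, 16.7 and 16.8 CPM in WT OVA libraries, against 19.4, 19.6, 23.9, 19.1 and 22.2 CPM in WT saline libraries. The WT groups did not overlap. The log2 fold change was -0.37 ± 0.09 in WT lungs (adjusted p = 0.0040) and -0.24 ± 0.10 in Has2+/- lungs (adjusted p = 0.063; -0.22 ± 0.10 and adjusted p = 0.122 without library 9). The WT call was lost without WT saline library 3 or 5 or WT OVA library 11, with no filter on low counts and with DESeq2 (adjusted p of 0.0101 to 0.0177, log2 fold changes of -0.37 to -0.31). Alms1 and Tppp3 remained called under every alternative tried.

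Further genes of the same machinery were counted from lists of 75 axonemal, 23 multiciliated programme, 29 IFT and 32 BBSome and transition zone genes, of which 65, 20, 27 and 31 were tested. In WT lungs 1 gene of the axonemal list rose, Cdhr4 (1.07 ± 0.18, adjusted p = 0.00012). In the same list 1 fell, Dnal1, a light chain of the outer arm (-0.40 ± 0.08, adjusted p = 0.00072). Both were called in Has2+/- lungs too, at 0.78 ± 0.19 (adjusted p = 0.0042) and -0.33 ± 0.08 (adjusted p = 0.0061). Without library 9, 0 genes of this list were called lower in Has2+/- lungs, so the call of Dnal1 was lost there. In the multiciliated programme 1 gene rose in WT lungs, Rfx5, better known as a factor of MHC class II genes (0.44 ± 0.12, adjusted p = 0.0088), and 1 rose in Has2+/- lungs, Stil, a centriole duplication gene (1.30 ± 0.36, adjusted p = 0.0092). The called shares were 3.08% of the axonemal and 5% of the multiciliated list in each genotype. Of all genes 21.9% were called in WT lungs and 18.2% in Has2+/- lungs. Without library 9, 3 axonemal and 3 multiciliated genes were called higher in Has2+/- lungs and 0 lower (12.1% and 10.2% of all genes). In WT lungs 3 and 2 were then called higher (12.7% of all genes) and 1 and 0 lower (10.8%). Medians in WT lungs were 0.06 for the axonemal list and 0.11 for the multiciliated list.

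Of the 27 further IFT genes 3 fell in WT lungs and 0 rose. Dync2h1, the heavy chain of the motor that carries IFT particles back to the cell body, had a log2 fold change of -0.48 ± 0.09 (adjusted p = 0.00034), Kifap3, a subunit of the outward kinesin motor, -0.50 ± 0.12 (adjusted p = 0.0025), and Tulp3, an adaptor between IFT and membrane receptors, -0.35 ± 0.07 (adjusted p = 0.00070). In Has2+/- lungs 2 of these fell, Dync2h1 (-0.34 ± 0.09, adjusted p = 0.0089) and Tulp3 (-0.33 ± 0.07, adjusted p = 0.0020). Of the 31 BBSome and transition zone genes 2 fell in WT lungs, Pcm1 of the centriolar satellites (-0.36 ± 0.08, adjusted p = 0.00091) and Cc2d2a of the transition zone (-0.36 ± 0.10, adjusted p = 0.0098), and 1 fell in Has2+/- lungs, the ciliary GTPase Arl13b (-0.40 ± 0.08, adjusted p = 0.0012). The medians in WT lungs were -0.10 and -0.16, with 17 of 27 and 22 of 31 genes negative. The called shares were 11.1% of IFT and 6.45% of BBSome and transition zone genes in WT lungs, beside 9.95% of all genes that fell. The Has2+/- shares were 7.41% and 3.23%, beside 7.72%.

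Genotype was compared within OVA and within saline. Between Has2+/- OVA and WT OVA lungs 0 of all 14495 genes were called (0%) by edgeR, 1120 had an unadjusted p under 0.05, and DESeq2 called 8. Of the 46 members 35 had estimates above 0 (median 0.10, beside 0.00 for all genes), 4 were higher at an unadjusted p under 0.05 (3.75% of all genes) and 2 did not overlap between groups, both higher (1.07% of all genes; 1.9% in either direction). Library 9 is in neither group, and without it 35 were again above 0 (median 0.10) and 0 were called. Those 2 were Ift80 and Alms1. Ift80 (chr3:68892498-69004570), a subunit of the IFT particle that moves outward, had 32.1, 40.9, 33.8, 42.8 and 34.6 CPM in Has2+/- OVA libraries, against 27.4, 28.0, 28.3, 27.9 and 27.9 CPM in WT OVA libraries. It had 32.7, 37.3, 35.3 and 30.6 CPM in Has2+/- saline libraries, against 32.3, 31.2, 34.2, 29.1 and 33.4 CPM in WT saline libraries. The WT OVA libraries were thus the low group, with a log2 fold change of 0.40 ± 0.08 for Has2+/- OVA over WT OVA (adjusted p = 0.176). Alms1 had 0.35 ± 0.07 (adjusted p = 0.189), also with WT OVA as the low group.

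Bbs4, another BBSome subunit, had 6.57, 5.74, 7.35, 7.53 and 9.60 CPM in Has2+/- OVA libraries, against 6.16, 4.80, 3.69, 5.93 and 5.28 CPM in WT OVA libraries. With saline it had 4.65, 7.86, 6.52 and 7.39 CPM in Has2+/- libraries, against 7.33, 6.88, 8.30, 7.27 and 4.88 CPM in WT libraries. The log2 fold change within OVA was 0.50 ± 0.19 (adjusted p = 0.538). Ccdc39, which forms the molecular ruler of the axoneme, had 29.8, 30.7, 27.0, 29.2 and 36.3 CPM in Has2+/- OVA libraries, against 29.1, 21.0, 24.4, 24.9 and 23.7 CPM in WT OVA libraries. It differed by 0.31 ± 0.13 on the log2 scale (adjusted p = 0.571). Bbs4 overlaps Adpgk (4105 counts in all) and Ccdc39 overlaps Ttc14 (12903 counts), and how the counting used strand is not given in the sources used here. Foxj1 went the other way at -0.40 ± 0.20 and Rfx2 at 0.24 ± 0.12 (adjusted p = 0.652 and 0.647), and neither passed the test. Without library 9 the estimates of these 6 members were the same to 2 decimals, with adjusted p of 0.132 to 0.568.

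**Figure D5:**
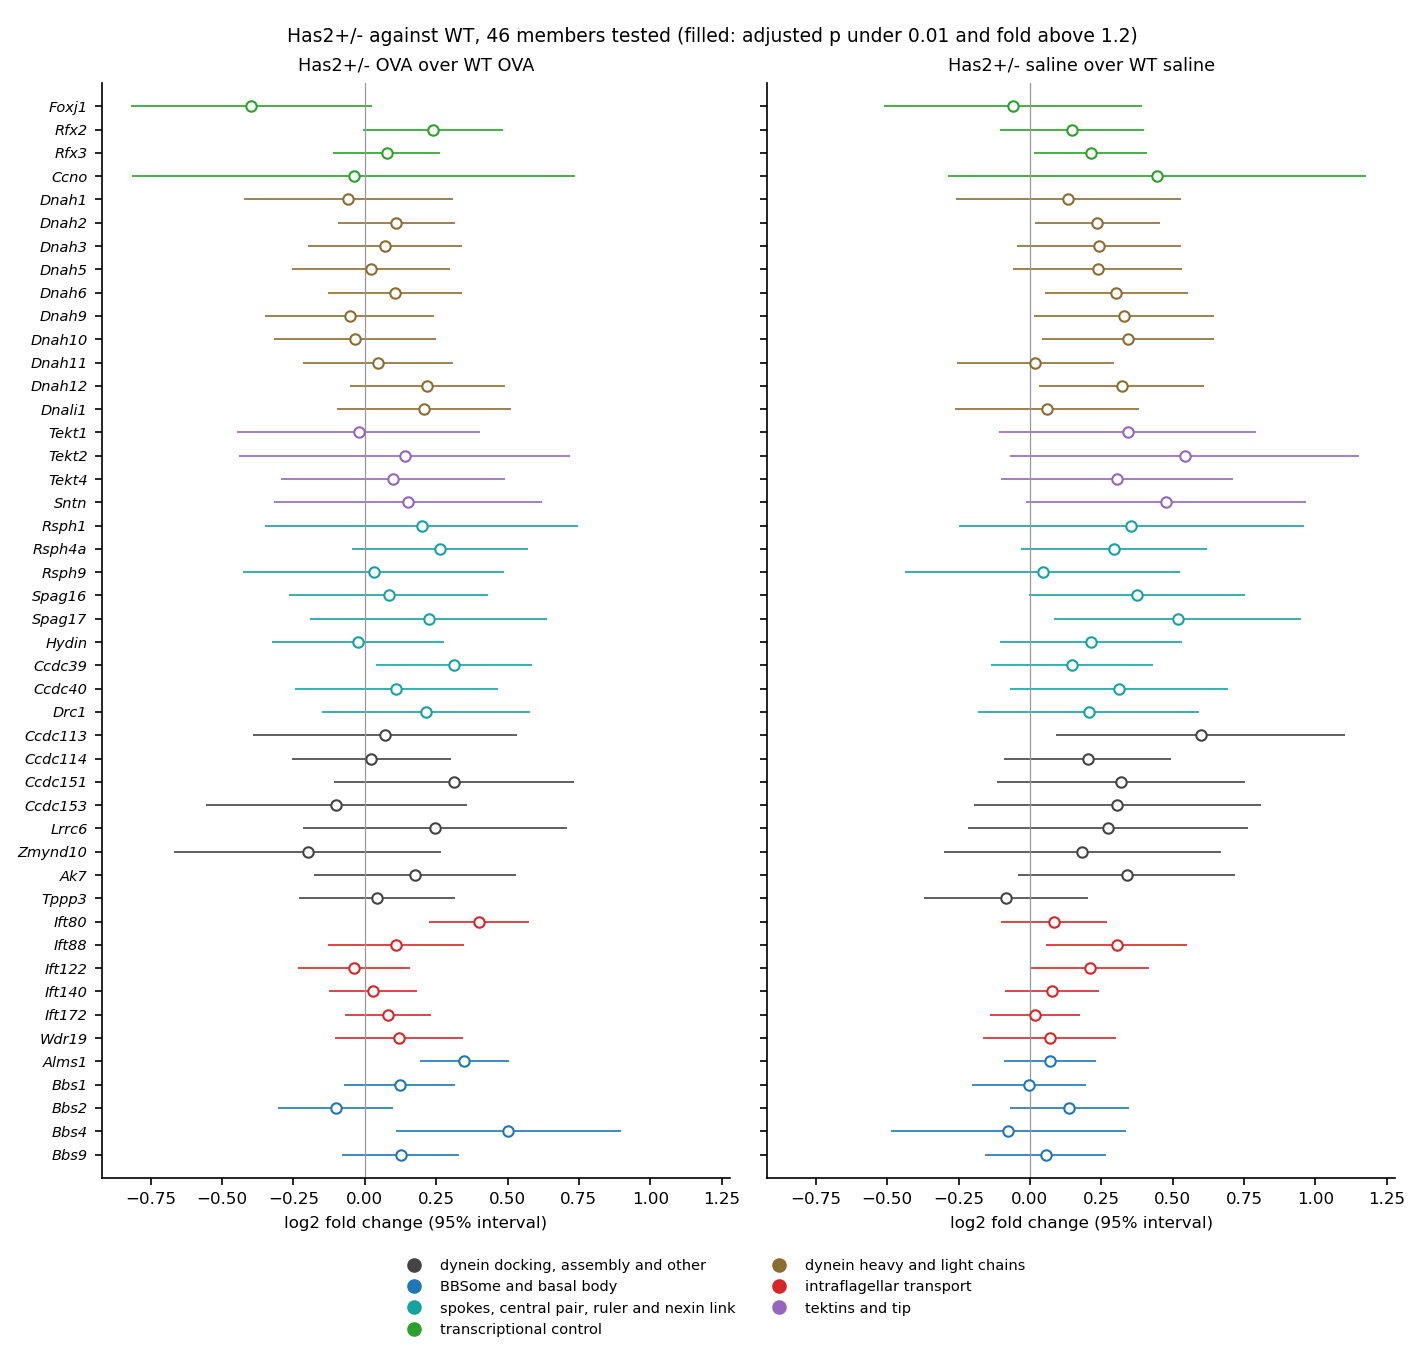
Log2 fold changes of Has2+/- over WT (x axis) with 95% intervals are plotted for the 46 members tested (y axis), coloured by role, within OVA at the left and within saline at the right. No member is called. Within saline 42 of 46 estimates are positive, in a comparison that holds library 9.

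Between Has2+/- saline and WT saline lungs 0 of all genes were called (0%) by edgeR, 1006 had an unadjusted p under 0.05, and DESeq2 called 1. Of the members 42 of 46 were positive, 33 of the 35 motile ones with a median of 0.29. The highest estimate was that of Ccdc113, a protein of cilia and basal bodies, at 0.60 ± 0.24 (adjusted p = 0.680; 0.31 ± 0.23 and adjusted p = 0.771 without library 9). Without library 9 the median of the motile members was 0.01, with 18 of 35 positive, and that of Dnah5 was -0.03 ± 0.09. The median of the 11 IFT, BBSome and basal body members was 0.07 with library 9 and 0.08 without it. The upward lean of axonemal genes in Has2+/- saline lungs was thus measured in 1 of 4 libraries. For Mcidas the means were 0.472 and 0.540 CPM in Has2+/- OVA and WT OVA libraries (exact permutation p = 0.802), and 0.726 and 0.787 CPM in Has2+/- saline and WT saline libraries (exact permutation p = 0.865).

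Whether OVA acted differently in the genotypes was tested as an interaction, the OVA effect in Has2+/- lungs minus that in WT lungs. It called 0 of 14495 genes (0%) with edgeR and 0 with DESeq2, and 594 had an unadjusted p under 0.05. The members with the smallest p were Alms1 (0.28 ± 0.11), Ift80 (0.32 ± 0.12) and Bbs4 (0.58 ± 0.27), each with an adjusted p of 1.00. Their values without library 9 were 0.26, 0.27 and 0.64. Dnah10 and Dnah9 followed at -0.38 ± 0.20 and -0.38 ± 0.21, and both were -0.09 without library 9. Ift122, a subunit of the IFT particle that returns to the cell body, had 30.0, 28.1, 28.0, 27.8 and 31.9 CPM in Has2+/- OVA libraries, against 29.7, 30.1, 27.6 and 36.7 CPM in Has2+/- saline libraries. In WT lungs it had 25.9, 28.0, 33.6, 30.3 and 31.5 CPM with OVA, against 27.7, 27.9, 22.1, 26.4 and 29.3 CPM with saline, and its interaction was -0.25 ± 0.14. The median interaction of the motile members was -0.19 with library 9 and 0.07 without it. The fall of Rfx2, Tppp3, Alms1 and Bbs1 in WT lungs was therefore not shown to differ from the change in Has2+/- lungs.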

How the data were processed

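Total lung RNA was sequenced as paired reads of 36 bases. The authors mapped the reads to mm10 and deposited counts per gene made with CLC Genomics Workbench 10.1.1. The labels' kit for removing ribosomal RNA and the design text's kit for mRNA differ, which was not resolved. A further 38 columns of normalized or transformed values, and columns of the authors' own tests (fold changes and p-values), were not used. Replicate numbers are not part of the column names.

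The deposited counts were fitted in edgeR 4.0.16 (limma 3.58.1, R 4.3.3) by its quasi-likelihood test, with TMM factors, filterByExpr (10 counts, 15 in total, share 0.7) and 1 model of the 4 groups (15 residual degrees of freedom, common biological coefficient of variation 0.138). Tests were two-sided and p-values were adjusted by Benjamini and Hochberg over 14495 genes. The thresholds follow the paper's methods. A legend there gives the fold limit as log2, which no member's estimate reached. The fit was tried on simulated counts, in which no library stood apart from its group by design. The motif search was tried on short made strings. The p-values of the fit set each difference against the spread between libraries of a group. That spread was estimated from all 4 groups together, library 9 included. CPM are counts over library size times TMM factor, and intervals are 95%. Mcidas, under the filter, was tested by exact permutation of its mean CPM. DESeq2 1.42.0 and other alternatives are in the closing section. Python 3.11.15, numpy 2.4.6, pandas 2.3.3 and matplotlib 3.10.9 were used.

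The members and lists were chosen with earlier results of these data known. Members are described in full if they are called in WT lungs, are transcriptional regulators, or have the smallest p in the genotype comparison within OVA or in the interaction. Further lists name up to 4 genes with the smallest p in WT lungs and called genes. Dnah1, Dnah5, Ccdc153, Ccdc113, Hydin, Ift172, Rsph1 and Stil were added after their values were seen, and the values without library 9 were chosen after seeing the data. Promoters are from RefSeq on GRCm38.p6, the assembly of mm10. In 40 of 42 windows the bases after the start were in a GENCODE transcript of the gene on the same strand, and 0 in reverse.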

Additional observations from a re-analysis of the deposited data

Results flagged for a closer look

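For 18 named members and 2 mean log2 levels, 80 sets of libraries were checked for a library far from the rest of its group, and 9 were found. Chance gives about 5% of independent sets, but these sets share libraries and some members were added after their values were seen, so nothing is read from that share. Of these 4 concern library 9 of the Has2+/- saline group, which was the highest there. It had 50.2 CPM of Ccdc153 against 15.9 to 19.0 CPM in the other 3 libraries, 126.9 CPM of Dnah10 against 63.7 to 72.3 CPM, and 179.5 CPM of Dnah9 against 87.1 to 99.9 CPM. Its level of the motile members was 0.73 (log2) against -0.19 to -0.04.

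In the same group, library 6 was the lowest for Bbs1 at 17.6 CPM against 21.7 to 22.2 CPM. In the WT OVA group, library 11 was the lowest for Alms1 at 33.0 CPM against 41.0 to 42.0 CPM, and for the level of the IFT, BBSome and basal body members at -0.25 (log2) against -0.13 to -0.10. Library 12 was the highest for Dnah1 at 46.1 CPM against 38.8 to 40.4 CPM. In the Has2+/- OVA group, library 17 was the highest for Bbs1 at 19.96 CPM against 16.6 to 17.5 CPM. What sets these libraries apart was not tested.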

How the results depend on the processing

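No paired analysis was possible because the columns carry no replicate numbers of the labels.

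In WT lungs, with 0 members called higher and 4 lower, a model of only the groups compared called 4 higher and an adjusted p under 0.05 called 2 higher (30.1% of all genes in either direction). Leaving out single libraries gave 0 to 4 higher, 2 to 4 lower (2 without WT saline library 3 or WT OVA library 11) and 2464 to 3433 of all genes. In Has2+/- lungs, DESeq2 called 1 member lower and an adjusted p under 0.05 called 3 (27.5% of all genes in either direction), single omissions gave 0 to 4 higher (4 without library 9) and 0 to 1 lower (without Has2+/- saline library 6 or 7 or Has2+/- OVA library 15), and all genes called were 1559 with only the groups compared, 3985 at adjusted p under 0.05 and 1932 to 3261 with single omissions. Within OVA between genotypes, DESeq2 called 8 genes and omissions 0 to 5, and within saline 1 gene was called with no filter, with only the groups compared and with DESeq2, and 0 to 1 with omissions. Members called stayed at 0 in both genotype comparisons and in the interaction under all alternatives.

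Of 980 values of named members under alternatives, 934 kept their sign and their side of the threshold, 13 lost and 19 gained the call, and 14 changed sign. Sign changes were in Has2+/- lungs with OVA and in estimates that were not called: Foxj1 (-0.0064 with upper-quartile factors, -0.00024 with DESeq2, -0.18 to 0.40 with omissions), Rfx3 (-0.088 to 0.027), Dnah1 (-0.054 to 0.47), Dnah9 (-0.16 to 0.24, the highest without library 9, and 0.00021 without Has2+/- OVA library 18) and Dnah10 (-0.18 to 0.21, the highest without library 9). Mcidas on a log2 scale kept its direction. With only the bases before the start, the half-site stood in 13 of 39 members (33.3%), against 11.8% of all genes. These were 12 of 30 motile members (40%) and 1 of 9 IFT, BBSome and basal body members (11.1%).

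With 4 or 5 libraries a group and members of a few CPM, differences of the size seen for Ccno or Mcidas were not detectable at this depth. Counting strand is not given in the sources used here, so members that overlap other genes are less certain.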
